A study of Mus musculus with 8 samples.

Results

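The genes described here encode centrosomal proteins and the tubulins of microtubules, and their RNA was measured by RNA-seq in small intestine adenomas of mice. Members were all rows of the deposited sheet whose symbol is Cep followed by digits and optional letters, without Cep85, and all symbols that start with Tuba, Tubb or Tubg and a digit, without pseudogene symbols. They number 52 of 48413 rows with a gene name, 35 Cep and 17 tubulin genes. The adenomas came from 4 ApcMin/+ mice that also lacked both copies of Sfn, the gene of 14-3-3σ (ApcMin/+/14-3-3σ-/-, called knockout here), and from 4 ApcMin/+ mice. All mice had a C57BL/6 background and carried the Min allele of Apc, a truncating allele that gives rise to intestinal polyps, so tumours without this allele are not part of the comparison. The knockout mice were 144 to 148 and the ApcMin/+ mice 256 to 282 days of age, and effects of age and genotype cannot be told apart. The question of the design is how loss of 14-3-3σ changes gene expression in these tumours.

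The values are normalised read counts as the authors deposited them, which sum to between 34182800 and 46707800 per library; the depth before normalisation is unknown. In the sheet, 1 knockout column bears the number of a mouse labelled ApcMin/+; it is called the unnumbered knockout library. The knockout libraries held 1, 0, 0 and 1 normalised counts of Sfn, against 6585 to 15968 in the ApcMin/+ libraries. The X-inactivation RNA Xist exceeded 1000 in the unnumbered knockout library and in ApcMin/+ replicates 2 and 3. In these libraries the RNA of the Y chromosome gene Ddx3y was at 0, 0 and 2, against 1435 to 2132 in the other libraries. The intestinal epithelial markers Epcam, Vil1 and Cdx2 were abundant in every library, with Cdx2 at 3342 to 4030 in the knockout and 3072 to 5135 in the ApcMin/+ adenomas. In bulk tissue, fewer cells of a type and less RNA per cell cannot be told apart.

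Centrosomes are built from centrioles and a surrounding matrix, and they organise the microtubules of interphase cells and of the mitotic spindle. Cep proteins drive centriole duplication, link centrosomes, carry the appendages that anchor microtubules and dock cilia, and in one case complete cell division. Microtubules are polymers of alpha and beta tubulin, several genes encode slightly different forms (isotypes) of each, and gamma tubulin starts new microtubules. In dividing intestinal epithelium this machinery positions the spindle, while differentiated enterocytes arrange their microtubules without a central centrosome.

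The isotypes are close enough in sequence that their separation in read counts has to be shown first, and the ends of the beta tubulin coding sequences show how far these genes differ. Printed are the last 60 coding bases, 5′ to 3′, stop codon included, of the abundant beta isotypes and of Tubb3, from GENCODE M21 transcripts (GRCm38). Capitals mark bases that did not align to an identical base of Tubb5 in a global alignment of the coding sequences.
Tubb5: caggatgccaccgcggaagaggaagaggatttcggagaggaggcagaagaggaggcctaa
Tubb4b: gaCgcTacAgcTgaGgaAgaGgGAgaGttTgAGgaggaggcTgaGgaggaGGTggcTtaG
Tubb2a: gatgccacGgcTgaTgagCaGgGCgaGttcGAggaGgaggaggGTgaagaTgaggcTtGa
Tubb2b: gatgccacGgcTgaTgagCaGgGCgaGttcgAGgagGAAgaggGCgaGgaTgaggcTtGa
Tubb4a: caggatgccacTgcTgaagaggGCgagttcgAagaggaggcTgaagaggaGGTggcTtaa
Tubb3: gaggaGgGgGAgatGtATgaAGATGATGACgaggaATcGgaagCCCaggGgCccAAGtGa
These ends lie at chr17:35834982-35835041 (Tubb5, minus strand), chr2:25222308-25222367 (Tubb4b, minus), chr13:34074468-34074527 (Tubb2a, minus), chr13:34127471-34127530 (Tubb2b, minus), chr17:57080690-57080749 (Tubb4a, minus) and chr8:123421623-123421682 (Tubb3, plus).

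Over these 60 bases Tubb4b has 20 that did not align to an identical base of Tubb5, and Tubb3, the isotype known from neurons, has 29. Over the whole coding sequence Tuba1a was 98.3% and Tuba1c 97.9% identical to Tuba1b, while Tuba4a was 85.0% identical to it. By the same measure the printed beta isotypes were 81.45% (Tubb3) to 84.6% (Tubb2a) identical to Tubb5, with Tubb4b at 82.2%. The longest run without a mismatch was 468 bases between Tuba1b and Tuba1c, 281 bases between Tuba1b and Tuba1a, 551 bases between Tubb2a and Tubb2b and 26 bases between Tubb5 and Tubb4b. Of all 31-base words in the transcripts of Tuba1a, 77.0% also occur in another gene, as do 68.9% for Tuba1b, 55.3% for Tuba1c, 56.4% for Tubb2a, 43.1% for Tubb2b and 48.6% for Tubb4b. For Tubb5, Tubb6, Tubb3, Tubb4a and Tuba4a the share was 3.47%, 3.24%, 3.21%, 1.86% and 2.80%. The values of Tuba1a, Tuba1b, Tuba1c, Tubb2a, Tubb2b and Tubb4b are therefore uncertain where the authors' counting, which is not given in the sources used here, could have split reads between copies. The pseudogenes Tubb4b-ps1 and Tubb4b-ps2, which hold most of the words shared by Tubb4b, were at 7 to 17 and 4 to 16 in the knockout libraries and at 10 to 14 and 4 to 12 in the ApcMin/+ libraries, low beside Tubb4b. Cep transcripts shared few words with other genes, up to 3.75% for the coding members (Cep78), while the non-coding intronic transcript Cep112it shared 23.6%.

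None of the Cep and tubulin genes passed the test between genotypes. Of the 52 members, 49 reached 10 normalised counts in 4 or more libraries and were tested, and 0 of them reached a limma adjusted p under 0.05 over all 17523 genes tested, where 58 genes (0.331%) did. At an unadjusted limma p under 0.05 there were 5 members (10.2%), Cep170 and Cep295 with higher and Cep63, Cep164 and Tuba8 with lower knockout means, against 18.9% of all genes tested (7.39% with higher and 11.6% with lower knockout means). Knockout and ApcMin/+ values were fully separated for 3 members (6.12%), Cep170, Cep63 and Cep164, against 16.1% of all genes. With 1 library fewer, separation is easier for all genes: 6 members were separated without knockout replicate 2 (23.5% of all genes), 6 without ApcMin/+ replicate 2 (21.1% of all genes) and 5 without ApcMin/+ replicate 1 (18.8% of all genes). Log2 fold changes, always knockout minus ApcMin/+ on the log2(value + 1) scale, lay between -1.61 (Tuba8) and 0.73 (Cep85l), both genes of low level. The 95% interval of the difference lay within -1 to 1 for 43 of the 49 members and within -0.5 to 0.5 for 17. A p-value that misses the threshold does not show that the genotypes are alike.

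**Figure D1:**
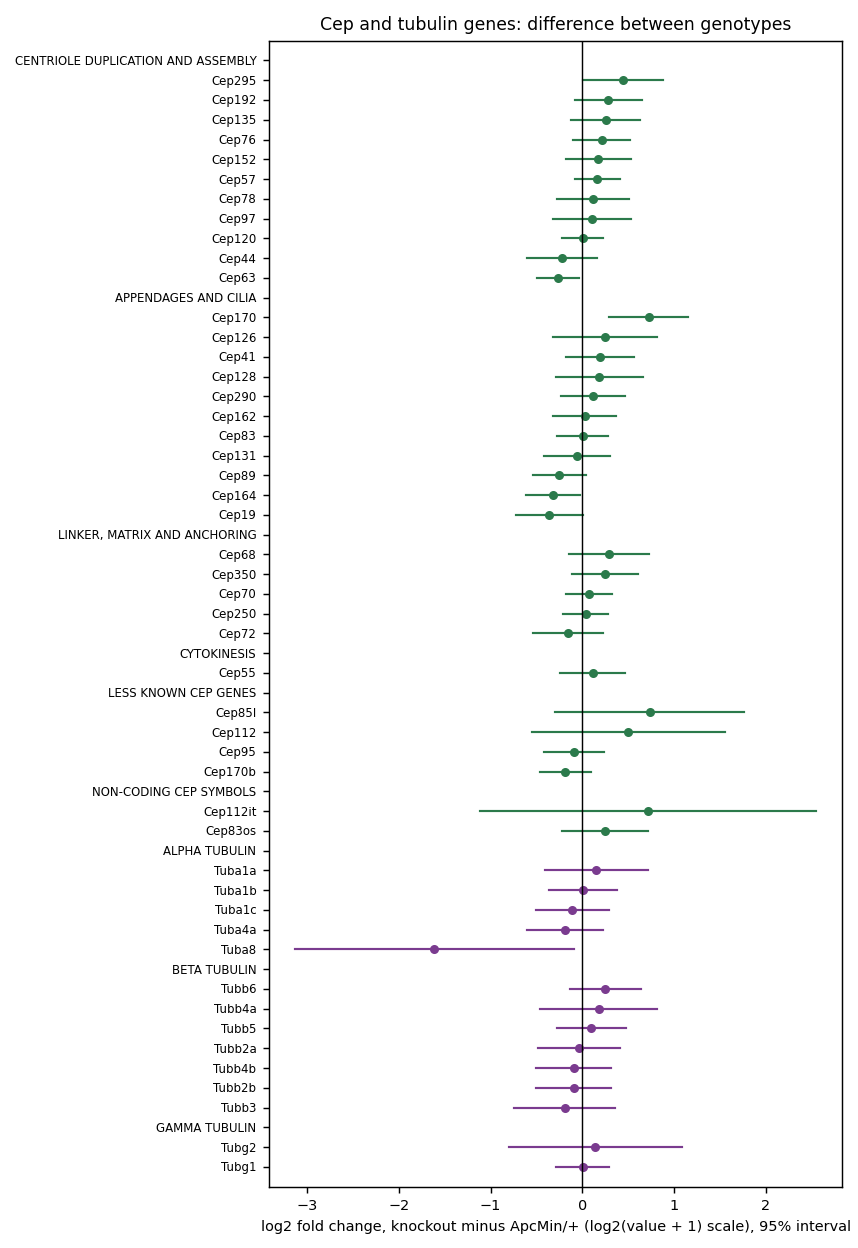
Log2 fold change (knockout minus ApcMin/+, log2(value + 1) scale, horizontal axis) of 48 of the 49 tested Cep (green) and tubulin (purple) genes, grouped by role, with 95% intervals from limma (4 libraries per genotype). The intervals of Cep170, Cep295, Cep63, Cep164 and Tuba8 do not include 0, though none of these genes passed after adjustment over all genes.

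Centriole duplication genes mostly had higher knockout means, and none of them passed the test. Of 11 tested, 9 had a log2 fold change above 0 (81.8%) and 2 below, against 41.0% of all genes tested above 0. Their median was 0.16, while the median of all genes tested was -0.07. These genes are long, with a median summed exon length of 6861 bases. Over all genes of 4629 to 6960 bases the median was -0.03, and over those of 6962 bases and more it was 0.04. Whether length plays a part in these differences was not tested. Cep295, which the growing centriole needs to become a centrosome, had 978, 703, 1010 and 822 normalised counts in the knockout libraries (the unnumbered one, then replicates 2, 3 and 4) and 507, 793, 554 and 741 in ApcMin/+ replicates 1 to 4. The knockout unnumbered library and replicates 3 and 4 lay above all ApcMin/+ libraries, and knockout replicate 2 lay within their range. Its log2 fold change was 0.45 (SE 0.19, limma adjusted p = 0.254). Cep192, the scaffold that recruits matrix and Plk4, averaged 1178 ± 168 in knockout and 970 ± 164 in ApcMin/+ adenomas (SD, n = 4 each; 95% interval of the log2 fold change -0.08 to 0.65). Cep152, which binds Plk4, averaged 381.5 ± 59.6 in knockout and 335.5 ± 28.6 in ApcMin/+ adenomas, with an interval of -0.18 to 0.53. Cep135, part of the centriole cartwheel region, averaged 474.5 ± 44.4 in knockout and 402 ± 74.4 in ApcMin/+ adenomas.

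Cep63, the partner of Cep152 in the ring around the parent centriole, had a lower knockout mean. There were 859, 803, 779 and 896 normalised counts in the knockout libraries, against 964, 1030, 975 and 1044 in the ApcMin/+ libraries. Every knockout library was below every ApcMin/+ library, and the spread within each genotype was narrow, 834 ± 53.1 in knockout and 1003 ± 39.6 in ApcMin/+ adenomas (SD, n = 4 each). The log2 fold change was -0.27 (SE 0.10, limma adjusted p = 0.218). Cep44, which acts when a centriole converts to a centrosome, was the other member of this role below 0, at -0.22 with an interval of -0.61 to 0.16. Cep120, a centriole elongation factor, had the smallest SE of this role (0.10), with 864 to 952 in knockout and 868 to 948 in ApcMin/+ libraries and an interval of -0.22 to 0.23. Cep57, Cep76, Cep78 and Cep97 had log2 fold changes of 0.10 (Cep97) to 0.21 (Cep76), and Cep97, which with Ccp110 caps centrioles, ranged over 277 to 439 among the ApcMin/+ libraries alone.

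Genes of the appendages and of cilia had log2 fold changes on both sides of 0, and none passed. Cep170, a protein of the subdistal appendages that anchors microtubules, had the smallest p of all members. It had 298, 354, 277 and 289 normalised counts in the knockout libraries, against 142, 229, 181 and 191 in the ApcMin/+ libraries. The lowest knockout library (277) was above the highest ApcMin/+ library (229). The log2 fold change was 0.72 (SE 0.19, 95% interval 0.29 to 1.15), with an unadjusted limma p of 0.00430 and an adjusted p of 0.135. The adjusted p was 0.0487 without ApcMin/+ replicate 2, where 1.97% of all genes passed, and over all alternatives it ranged from 0.0406 to 0.389. Among the 6 libraries of 1 shared sequencing order, which leave out ApcMin/+ replicates 3 and 4, the log2 fold change was 0.75. Cep170b, a relative of Cep170 and the Cep gene with the highest count, had 6762, 5508, 6197 and 6618 in the knockout libraries and 7074, 6990, 6281 and 8186 in the ApcMin/+ libraries. These ranges overlap, with a difference of -0.18 on the log2 scale (SE 0.12).

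Cep164, Cep89 and Cep83 are known from the distal appendages, which dock the centriole at the membrane, and the 95% intervals of their log2 fold changes overlap. Cep164, which recruits the kinase that starts cilium growth, had 1071, 757, 967 and 886 normalised counts in the knockout libraries, against 1117, 1201, 1171 and 1081 in the ApcMin/+ libraries. The groups were separated by a narrow gap, 1071 against 1081, and the log2 fold change was -0.32 (SE 0.13, limma adjusted p = 0.232). Cep89 had 594, 576, 634 and 693 in the knockout libraries and 643, 850, 750 and 734 in the ApcMin/+ libraries, which overlap, with a log2 fold change of -0.25 (SE 0.13). Cep83, at the base of these appendages, averaged 1029 ± 120 in knockout and 1021 ± 66.7 in ApcMin/+ adenomas, with an interval of -0.27 to 0.28. Cep19, which works with Cep350 in early cilium formation, had 529, 625, 470 and 592 in the knockout libraries, against 835, 581, 657 and 788 in the ApcMin/+ libraries. ApcMin/+ replicate 2 fell inside the knockout range, and the log2 fold change was -0.36 (SE 0.16, limma adjusted p = 0.267).

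Other cilium-related members were close to 0 or had wide intervals. The transition zone genes Cep290 and Cep162 had log2 fold changes of 0.12 and 0.02, Cep41, needed for tubulin glutamylation in cilia, 0.19, and the satellite gene Cep131 -0.05. The sign of Cep131 turned under median-ratio scaling. Cep85, the gene that the rule leaves out, lies on chromosome 4 (134129858 to 134187112), as does Sfn (133600556 to 133602168). It had 595 to 909 normalised counts in the knockout libraries, against 6635 to 12689 in the ApcMin/+ libraries (log2 fold change -3.64, SE 0.22, limma adjusted p = 0.00031). Its relative Cep85l on chromosome 10 was low, 15 to 35 in the knockout and 7 to 21 in the ApcMin/+ libraries, with a log2 fold change of 0.73 and an interval of -0.29 to 1.76.

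Genes of the linker between centrosomes and of the surrounding matrix had small differences. Cep250, which forms the linker fibres, had 1422, 1138, 1280 and 1252 normalised counts in the knockout libraries and 1154, 1337, 1238 and 1221 in the ApcMin/+ libraries. The libraries of the genotypes were interleaved, and the log2 fold change was 0.04 (SE 0.11, 95% interval -0.21 to 0.28). Cep350, a very large anchoring protein, had 2993, 2329, 3220 and 2612 in the knockout libraries, against 2482, 2161, 1912 and 2887 in the ApcMin/+ libraries. Here too the groups overlapped, with a log2 fold change of 0.25 (SE 0.16). Cep68, another linker protein, averaged 858 ± 82.1 in knockout and 718 ± 189 in ApcMin/+ adenomas, and the satellite protein gene Cep72 averaged 604.5 ± 57.1 in knockout and 683 ± 138 in ApcMin/+ adenomas. Cep55, which recruits the machinery that cuts daughter cells apart, had 1251 to 1336 in the knockout and 955 to 1570 in the ApcMin/+ libraries, a log2 fold change of 0.11 (SE 0.16). Other Cep members had log2 fold changes of -0.09 (Cep95), 0.07 (Cep70), 0.18 (Cep128) and 0.25 (Cep126), and the non-coding Cep83os, which starts beside Cep83 on the other strand, had 0.24 (SE 0.21).

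**Figure D2:**
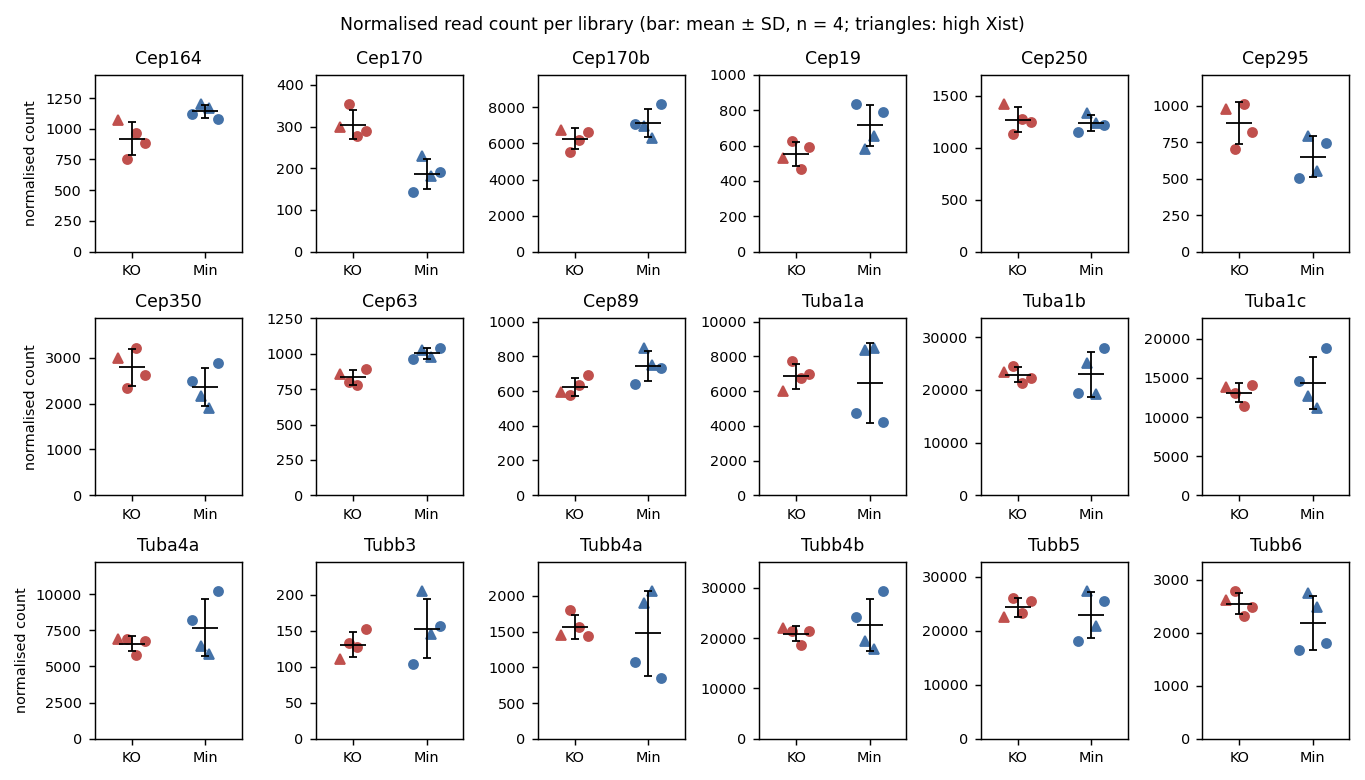
Normalised read counts (vertical axes, starting at 0) of 18 members, with knockout (KO, red) left of ApcMin/+ (Min, blue), the mean ± SD as a bar (n = 4) and libraries with Xist above 1000 as triangles. Cep170, Cep63 and Cep164 show no overlap between the genotypes, while Tuba1a and Tubb4a split the ApcMin/+ libraries into a high and a low pair on either side of the knockout libraries.

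Tubulin mRNA was made up of a few isotypes in both genotypes, and none of the tested isotypes passed the test. To compare genes, counts were divided by the summed length of all annotated exons in kilobases. Among alpha tubulins, Tuba1b had 12182 ± 752 normalised counts per kilobase in knockout and 12227 ± 2299 in ApcMin/+ adenomas (SD, n = 4 each), which is 51.8% ± 1.25 of all alpha tubulin in knockout and 50.3% ± 2.82 in ApcMin/+ adenomas. Tuba1c followed with 24.4% ± 1.62 in knockout and 25.9% ± 4.05 in ApcMin/+ adenomas, then Tuba1a with 16.2% ± 1.53 in knockout and 15.2% ± 6.14 in ApcMin/+ adenomas, and Tuba4a with 7.55% ± 0.293 in knockout and 8.55% ± 1.67 in ApcMin/+ adenomas. Tuba1c was above Tuba1a in every library, most narrowly in ApcMin/+ replicate 3 with 22.8% against 22.0%. Among beta tubulins, Tubb4b made up 44.4% ± 1.70 in knockout and 47.2% ± 6.68 in ApcMin/+ adenomas, and Tubb5 32.6% ± 1.98 in knockout and 30.2% ± 4.36 in ApcMin/+ adenomas. Without division by length, Tubb5 had the higher count of these 2 genes in 6 of 8 libraries, so their order rests on the length used. Tubb2a, Tubb6, Tubb2b and Tubb4a followed at 10.8%, 4.67%, 4.04% and 3.14% in knockout and 10.8%, 4.0%, 4.34% and 3.01% in ApcMin/+ adenomas, and the neuronal isotype Tubb3 at 0.312% in knockout and 0.360% in ApcMin/+ adenomas. Gamma tubulin was 95.4% Tubg1 in knockout and 95.6% in ApcMin/+ adenomas, the rest being Tubg2.

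**Figure D3:**
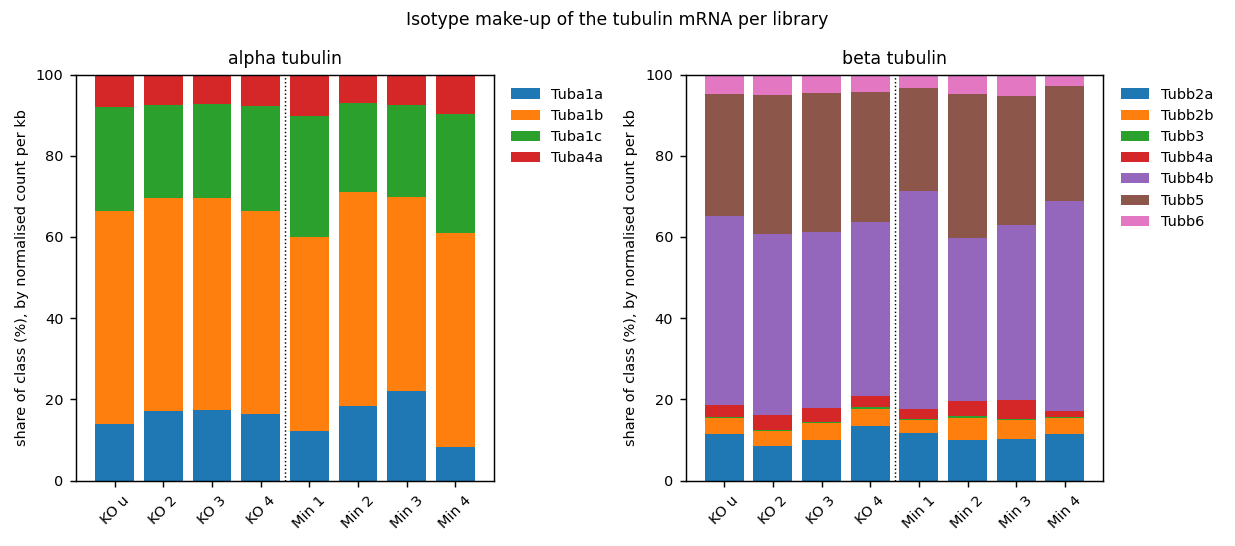
Share of each isotype in alpha tubulin (left) and beta tubulin (right) per library in percent, from normalised counts per kilobase of exon, with the 4 knockout libraries (KO, u for unnumbered) left of the dotted line and ApcMin/+ replicates 1 to 4 (Min) right of it. The Tuba1a share is lowest in ApcMin/+ replicates 4 and 1 (8.30% and 12.1%) and highest in ApcMin/+ replicates 3 and 2 (22.0% and 18.3%), and the knockout libraries lie between 14.0% and 17.3%.

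The 3 tubulin genes with the highest counts had log2 fold changes within 0.10 of 0 on the values as deposited. After quantile normalisation these were 0.22 (Tubb5), 0.14 (Tuba1b) and 0.04 (Tubb4b), and after median-ratio scaling 0.16, 0.07 and -0.03. Tubb5 had 22496, 26002, 23323 and 25490 normalised counts in the knockout libraries and 18067, 27344, 20963 and 25566 in the ApcMin/+ libraries. The knockout values lie inside the ApcMin/+ range, and the log2 fold change was 0.10 (SE 0.17, 95% interval -0.28 to 0.48). Tuba1b had 23344, 24527, 21259 and 22231 in the knockout libraries and 19454, 24999, 19241 and 28008 in the ApcMin/+ libraries, again with the knockout values inside the ApcMin/+ range (0.01, SE 0.16). Tubb4b had 21973, 21355, 18623 and 21384 in the knockout libraries and 24092, 19395, 17796 and 29312 in the ApcMin/+ libraries, with a log2 fold change of -0.10 (SE 0.18) whose sign turned under quantile normalisation. Tuba1c and Tuba4a had their highest value in ApcMin/+ replicate 4. Tuba1c was at 13887, 13061, 11431 and 14104 in the knockout and 14670, 12745, 11182 and 18884 in the ApcMin/+ libraries (-0.11, SE 0.18, turned to above 0 under quantile normalisation). Tuba4a, which lies on chromosome 1, apart from the Tuba1 genes of chromosome 15, was at 6898, 6869, 5765 and 6775 in the knockout libraries, against 8179, 6434, 5851 and 10206 in the ApcMin/+ libraries (-0.19, SE 0.18).

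Less abundant isotypes overlapped between the genotypes too. Tubb3 had 111, 133, 127 and 152 normalised counts in the knockout libraries and 104, 205, 146 and 157 in the ApcMin/+ libraries, a log2 fold change of -0.19 (SE 0.24). Tubb2a and Tubb2b, a tandem pair on chromosome 13, had log2 fold changes of -0.04 and -0.10, and the sign of Tubb2a turned under median-ratio and quantile scaling. Tubg1, the gamma tubulin of the microtubule-nucleating ring, averaged 1383 ± 34.7 in knockout and 1389.5 ± 214 in ApcMin/+ adenomas, with an interval of -0.28 to 0.30. Tuba8, known from muscle and testis, had 12, 30, 4 and 4 in the knockout libraries, against 51, 17, 40 and 22 in the ApcMin/+ libraries. Knockout replicate 2 lay within the ApcMin/+ range, and the log2 fold change of -1.61 (SE 0.67, limma adjusted p = 0.246) rests on low values. The 3 untested members were at the floor in both genotypes. Tuba3a, a testis isotype, was at 1 to 3 in the knockout and 1 to 6 in the ApcMin/+ libraries. Tuba3b was listed at 0 in all libraries, and Tubb1, the isotype of platelets, was at 1 to 10 in the knockout and 0 to 9 in the ApcMin/+ libraries.

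A pattern that cut across the genotype comparison was a split of the ApcMin/+ libraries. Tuba1a had 5981, 7713, 6741 and 6996 normalised counts in the knockout libraries, against 4730, 8366, 8511 and 4239 in ApcMin/+ replicates 1 to 4. Tubb4a had 1457, 1804, 1561 and 1436 in the knockout and 1072, 1902, 2066 and 856 in the ApcMin/+ libraries, and Tubb6 had 2616, 2788, 2316 and 2496 in the knockout and 1685, 2752, 2495 and 1811 in the ApcMin/+ libraries. In each of these genes ApcMin/+ replicates 2 and 3 were above replicates 1 and 4. The same held for Cep112, a centrosomal protein gene of little known function singled out after its values were seen, with 123, 145, 137 and 143 in the knockout and 52, 194, 165 and 51 in the ApcMin/+ libraries. In all, ApcMin/+ replicates 2 and 3 both lay above replicates 1 and 4 for 18 of 49 members (36.7%; 23.5% of all genes tested), and both below for 7 (14.3%; 36.4% of all genes), among them Tuba1c, Tuba4a and Tubb4b.

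**Figure D4:**
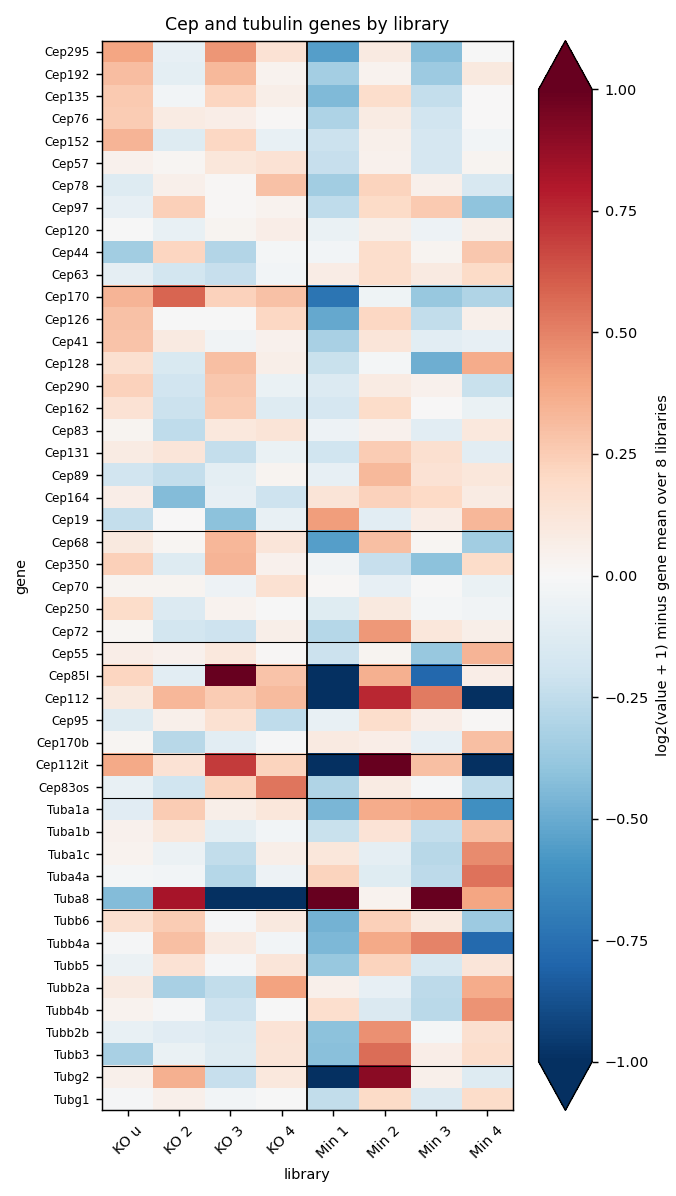
Log2(value + 1) of 48 of the 49 tested members minus each gene's mean over the 8 libraries (colour, limited to -1 and 1), with knockout libraries (KO, u for unnumbered) left of the vertical line and ApcMin/+ replicates 1 to 4 (Min) right of it; rows are grouped by role in the order of the fold change plot, alpha, beta and gamma tubulins at the bottom. ApcMin/+ replicates 1 and 4 are low for Cep112, Tuba1a, Tubb6 and Tubb4a, where replicates 2 and 3 are high.

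Replicates 2 and 3 are the ApcMin/+ libraries with high Xist, and sums of epithelial and fibroblast markers moved with the same split. The summed normalised counts of 12 intestinal epithelial markers were 545911 to 663950 in the knockout libraries, against 842421 and 912683 in ApcMin/+ replicates 1 and 4 and 496220 and 505370 in ApcMin/+ replicates 2 and 3. Those of 10 fibroblast markers were 52384 to 96987 in the knockout libraries, against 34742 and 35947 in ApcMin/+ replicates 1 and 4 and 51312 and 50260 in ApcMin/+ replicates 2 and 3. The single marker Epcam had the same order within ApcMin/+ adenomas, with 90065 and 111180 in replicates 1 and 4 and 85594 and 77517 in replicates 2 and 3. In the knockout libraries Epcam was at 68883 to 88296. Among the knockout libraries the one with high Xist had the lowest Tuba1a (5981), whereas the ApcMin/+ libraries with high Xist had the highest. The part of these cell types in the split of the tubulin genes was not tested. Within the 5 libraries with low Xist, 3 knockout and 2 ApcMin/+, 7 of 49 members passed a limma adjusted p of 0.05 (14.3%), against 12.5% of all genes tested, so the share of members was near that of all genes. They were Tuba1a (log2 fold change 0.67, SE 0.12), Tubb4a (0.73, SE 0.15), Tubb6 (0.53, SE 0.12), Cep68 (0.61, SE 0.15), Cep112 (1.44, SE 0.24), its intronic transcript Cep112it (2.10, SE 0.55) and Cep170 (0.88, SE 0.22), all higher in the knockout adenomas. For all of them but Cep170, ApcMin/+ replicates 2 and 3, which are left out here, lay above replicates 1 and 4. Leaving them out lowers the ApcMin/+ means of these genes, so these calls are not independent of the split. In the same 5 libraries the fibroblast marker sums were 84578, 68503 and 96987 in knockout and 34742 and 35947 in ApcMin/+ adenomas, and their part in these differences was not tested. The genotypes did not overlap for 19 of the 49 members in these libraries, against 49.0% of all genes. Cep112it lies within an intron of Cep112, and reads of unspliced Cep112 RNA and of Cep112it cannot be told apart. With the high-Xist libraries included, the log2 fold changes of Tuba1a, Tubb4a and Tubb6 were 0.15, 0.18 and 0.25.

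The spread between mice was larger in ApcMin/+ than in knockout adenomas for most tubulin genes. The SD of log2 values was the larger one in ApcMin/+ adenomas for 12 of 14 tested tubulin genes (85.7%) and 24 of 35 Cep genes (68.6%), against 61.8% of all genes tested. The median SD over tubulin genes was 0.13 in knockout and 0.35 in ApcMin/+ adenomas, while over all genes it was 0.19 in knockout and 0.25 in ApcMin/+ adenomas. The normalisation had already removed 1 direction of difference within the genotypes, so these SDs are those left after it. The knockout libraries shared 1 sequencing order, while ApcMin/+ replicates 3 and 4 had another order than replicates 1 and 2. Xist was high in ApcMin/+ replicates 2 and 3 and in the unnumbered knockout library. The part of order and of the Xist split in these SDs was not tested.

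Fold changes varied with transcript length over all genes, and Cep transcripts are long. With the tested genes sorted by summed exon length into 5 bins of equal size, the median log2 fold change was -0.20 for the shortest genes (38 to 1874 bases), then -0.14, -0.09 and -0.03, and 0.04 for the longest (6962 bases and more). Tested Cep genes had a median length of 6566 bases and a median log2 fold change of 0.11, with 25 of 35 above 0 (71.4%), against 41.0% of all genes. Within the longest bin, 16 Cep genes had a median of 0.11 against 0.04 for all genes there, and within the next longest, 11 Cep genes had 0.18 against -0.03. From the shortest bin on, the 1, 2 and 5 Cep genes of the other bins had medians of -0.36, 0.11 and 0.16, against -0.20, -0.14 and -0.09. Tested tubulin genes are short and had a median of -0.02, with 7 above and 7 below 0. Within the bin next to the shortest, 8 tubulin genes had a median of -0.05 against -0.14 for all genes. The 4 tubulin genes of the shortest bin had 0.05 against -0.20, and the 2 of the middle bin -0.05 against -0.09. Whether length plays a part in the fold changes of Cep and tubulin genes was not tested. Among the knockout libraries the unnumbered one and replicate 3 were both above replicates 2 and 4 for 12 of 35 Cep genes (34.3%; 21.6% of all genes), Cep152, Cep290 and Cep295 among them, and for 0 tubulin genes. Both were below replicates 2 and 4 for 5 of 35 Cep genes and 5 of 14 tubulin genes, against 20.3% of all genes. Over all genes of the longest bin, the median deviation from the genotype mean on the log2 scale was 0.07 in the unnumbered knockout library, -0.13 in knockout replicate 2, 0.06 in replicate 3 and 0.01 in replicate 4.

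**Figure D5:**
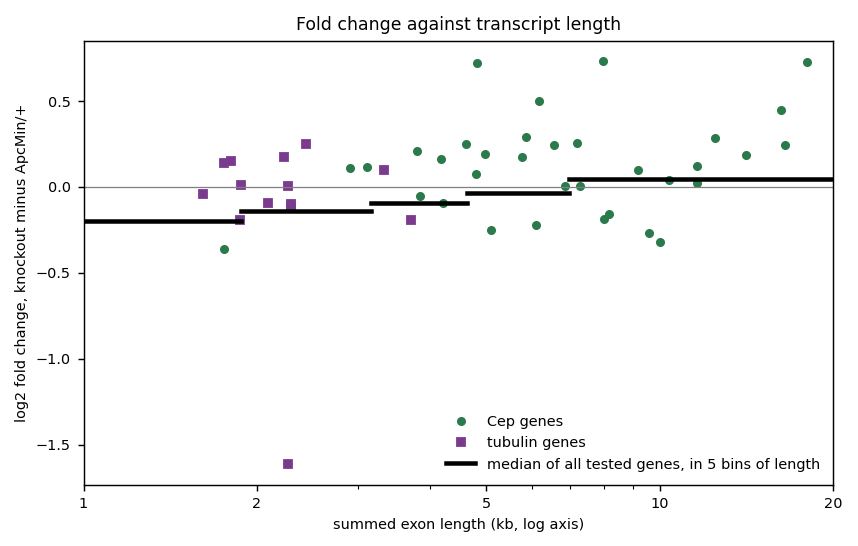
Log2 fold change (knockout minus ApcMin/+) of 48 of the 49 tested genes, Cep (circles) and tubulin (squares), against summed exon length in kilobases (log axis), with the median of all tested genes in each of 5 length bins as black lines (the first and last line are clipped to the axis). The lines climb from -0.20 to 0.04, and Cep genes lie on both sides of them.

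Other genes of the pathway did not pass either. Of all genes tested, 41.0% had a log2 fold change above 0, with a median of -0.07. Of 25 further centriole and matrix genes, 0 passed over all genes, and 16 had a log2 fold change above 0 and 9 below (median 0.04). Plk4, the kinase that starts centriole duplication, had 926, 851, 1023 and 870 normalised counts in the knockout libraries, against 563, 807, 583 and 827 in the ApcMin/+ libraries. Every knockout library was above every ApcMin/+ library (log2 fold change 0.42, SE 0.16, limma adjusted p = 0.225). Stil, its partner in building the new centriole, had 799, 625, 779 and 722 in the knockout and 419, 612, 424 and 648 in the ApcMin/+ libraries, which overlap (0.50, SE 0.18, limma adjusted p = 0.212). Of 16 genes of the gamma-tubulin ring and the augmin complex, 0 passed, with 6 above and 10 below 0 (median -0.05). The augmin subunit gene Haus3, whose complex branches spindle microtubules, had 639, 509, 562 and 571 in the knockout libraries, against 395, 406, 369 and 443 in the ApcMin/+ libraries, with no overlap (0.50, SE 0.13, limma adjusted p = 0.135). Haus6, another augmin subunit, had 951, 804, 1122 and 954 in the knockout libraries and 564, 877, 694 and 698 in the ApcMin/+ libraries, which overlap (0.44, SE 0.16, limma adjusted p = 0.213).

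Over all genes tested, 41.0% lay above 0, and the shortest and next shortest bins of exon length had medians of -0.20 and -0.14. The part of length in the fold changes of the following lists was not tested. Of 21 tubulin folding genes 0 passed, and 19 lay below 0 (median -0.17). Among their prefoldin subunits, which hand new tubulin to the chaperonin, Vbp1, on the X chromosome, had 1884, 2086, 2114 and 1958 in the knockout libraries, against 1322, 1459, 1442 and 1319 in the ApcMin/+ libraries (0.54, SE 0.09, limma adjusted p = 0.0716). Pfdn5 had 2722, 3392, 2594 and 2937 in the knockout libraries, against 4454, 3699, 3984 and 4344 in the ApcMin/+ libraries (-0.50, SE 0.12, limma adjusted p = 0.117). Neither overlapped between the genotypes. Of 19 tested tubulin-modifying genes, 0 passed and 14 lay below 0 (median -0.14). The deacetylase gene Sirt2 had 1290, 1339, 1349 and 1368 in the knockout libraries, against 1764, 1552, 1604 and 1729 in the ApcMin/+ libraries (-0.31, SE 0.09, limma adjusted p = 0.151). Svbp, the partner of the detyrosinating vasohibins, had 439, 619, 452 and 568 in the knockout libraries, against 736, 666, 714 and 728 in the ApcMin/+ libraries (-0.47, SE 0.15, limma adjusted p = 0.161). All knockout libraries were below all ApcMin/+ libraries for both genes. Of 31 tested genes of microtubule dynamics, 0 passed, 14 lay above and 17 below 0 (median -0.06). Stmn1, which binds free tubulin and favours shrinkage, had 4341, 6610, 4844 and 5433 in the knockout libraries, against 7186, 10189, 9087 and 8521 in the ApcMin/+ libraries (-0.73, SE 0.16, limma adjusted p = 0.108). Stmn1 lies on chromosome 4 (134468320 to 134473843), as does Sfn (133600556 to 133602168). The part of this position in its values was not tested. The doublecortin-like kinase gene Dclk1, also a tuft cell marker, had 862, 660, 422 and 723 in the knockout libraries and 1124, 1255, 1536 and 856 in the ApcMin/+ libraries, which overlap by 1 library of each genotype (-0.85, SE 0.25, limma adjusted p = 0.151).

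Markers of cells that use these genes were compared between the groups as summed normalised counts. The 24 markers of mitotic cells summed to 64074 to 69574 in the knockout and 51428 to 86095 in the ApcMin/+ libraries, with 0 passing and a median log2 fold change of 0.06. Multiciliated cell markers were low, 270 to 371 in the knockout and 397 to 651 in the ApcMin/+ libraries, and of the defining factors Mcidas and Gmnc were under 10 everywhere while Foxj1 was at 6 to 11 in the knockout and 5 to 15 in the ApcMin/+ libraries. Enteric neuron markers summed to 1645 to 2732 in the knockout and 1731 to 2107 in the ApcMin/+ libraries, and enteric glia markers to 7412 to 10249 in the knockout and 6633 to 11505 in the ApcMin/+ libraries. Platelet markers summed to 1659 to 2058 in the knockout and 1162 to 1728 in the ApcMin/+ libraries. Tuft cell markers, whose cells carry dense microtubule bundles, summed to 11200 to 14530 in the knockout and 16025 to 19183 in the ApcMin/+ libraries (median log2 fold change -0.99, 11 of 11 below 0, 0 passing). Fibroblast markers had a median log2 fold change of 0.71 (10 of 10 above 0, 0 passing). Endothelial markers summed to 9102 to 13764 in the knockout and 7119 to 13028 in the ApcMin/+ libraries. Smooth muscle markers summed to 15299 to 28996 in the knockout and 19458 to 31704 in the ApcMin/+ libraries, and leukocyte markers to 6019 to 13320 in the knockout and 5075 to 7239 in the ApcMin/+ libraries. The part of these cells in the values of the Cep and tubulin genes was not tested.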

How the data were processed

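Per the labels' protocols, total RNA of adenomas was made into strand-specific Illumina libraries, 8 in all. The labels do not say whether a library held 1 adenoma or several pooled ones. The authors deposited 1 sheet of whole numbers, treated here as a score and not as raw counts, because they are read counts normalised with RUVs, as the deposited sheet's name says. RUVs subtracts factors estimated among replicates. The build was mm10, per the submitters' processing notes; aligner, counter and annotation: not given in the sources used here. ApcMin/+ replicates 3 and 4 had another sequencing order than the other libraries. The labels name a separate mouse for each library; replicate numbers follow the order of the labels and pair nothing. Left out were 27 rows with dates in place of names.

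Rows that reached 10 in 4 or more libraries entered limma 3.58.1 in R 4.3.3 (eBayes with trend) on log2(value + 1), with Benjamini-Hochberg adjustment over all 17523 genes. Deviations from the genotype means had 6 directions, and 1 had a singular value of 0.0954 against 53.8 for the largest. It was taken as removed by RUVs and entered as a covariate, as would any under 0.1 of the largest. The model was tested on simulated data. Positions, gene types and exon lengths came from GENCODE M21 (GRCm38), in which 46257 rows were found by symbol and 569 by synonym; sequence words were compared on the sense strand.

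The members, roles and gene lists were chosen with earlier results of these data known. Values in every library are given for the 6 Cep and 6 tubulin genes with the smallest p (mean log2 of at least 5) and the 3 of each with the highest count, for the 2 genes with the smallest p in pathway lists, and for Tuba8 and Cep112, chosen after their values were seen. The values of 1 tested member, which stays in the counts and medians, and some coding sequences are not reported here. Sums over isotypes got no test. The fold changes of members, their medians and the counts of members called or without overlap were recomputed with a pseudocount of 0.5 or 5, with a minimum of 50 or none, after median-ratio scaling or quantile normalisation, and with the removed direction dropped. They were also recomputed with the order as a model term, within the 6 libraries of 1 order, within the 5 low-Xist libraries, and without each library in turn.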

Additional observations from a re-analysis of the deposited data

Results flagged for a closer look

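Tuba4a, an alpha tubulin gene, had a knockout library far from the others: knockout replicate 3 was at 5765 normalised counts, against 6775 to 6898 in the other knockout libraries. This was 1 of 98 groups of 4 libraries examined, and chance alone sets apart about 1 in 20 such groups.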

How the results depend on the processing

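The number of members passing a limma adjusted p of 0.05 was 0 in the 9 alternatives on pseudocounts, filters, scaling, the removed direction and the sequencing order, 0 to 1 when each library was left out, and 7 in the 5 libraries with low Xist. The number of members without overlap was 3 to 6 when each library was left out and 19 of 49 in the 5 libraries with low Xist, where 49.0% of all genes did not overlap; it was not computed after quantile normalisation. The median log2 fold change stayed within 0.061 to 0.1827 for Cep genes and -0.0921 to 0.0625 for tubulin genes. Of the 49 tested members, 27 kept their direction in every alternative and 22 turned in at least 1. Median-ratio scaling turned Cep131 (0.0075) and Tubb2a (0.0225), and quantile normalisation turned Tuba1c (0.0029), Tubb2a (0.0341) and Tubb4b (0.0415). The 5 libraries with low Xist turned Cep128 (-0.0023), Cep131 (0.0885), Cep55 (-0.0095), Cep72 (0.0016), Cep83 (-0.0336), Cep95 (0.0145), Tuba1b (-0.0446), Tubb2b (0.0859) and Tubb3 (0.0988). Leaving out each library gave log2 fold changes of -0.0546 to 0.1012 for Cep162, -0.0165 to 0.0906 for Cep250, -0.0377 to 0.0910 for Cep83 (-0.0034 without the unnumbered knockout library), -0.0664 to 0.1141 for Tuba1b, -0.1800 to 0.0790 for Tubb2a, -0.0752 to 0.0708 for Tubg1, -0.0183 to 0.0304 for Cep120, -0.1282 to 0.0213 for Cep131, -0.0111 to 0.1882 for Tubb5, -0.2035 to 0.4632 for Tubg2, -0.2486 to 0.0405 for Tubb2b, -0.0157 to 0.2051 for Cep97, -0.0268 to 0.3084 for Tuba1a, -0.2196 to 0.0324 for Tuba1c, -0.0519 to 0.3715 for Tubb4a and -0.2026 to 0.0374 for Tubb4b. The cause of these turns was not tested. No paired analysis was possible because replicate numbers follow the order of the labels and pair no mice. The depth before normalisation is unknown, so it sets no limit that can be stated here.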

Other observations

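Tubulin genes outside the alpha, beta and gamma members were also measured. Of 4 tested genes on this list, 0 passed the limma threshold over all genes. Tubal3, an alpha-like tubulin gene, had 837, 539, 670 and 456 normalised counts in the knockout libraries, against 708, 272, 339 and 562 in the ApcMin/+ libraries (log2 fold change 0.48, SE 0.33, limma adjusted p = 0.453). ApcMin/+ replicates 2 and 3 were the lowest of all libraries. Tube1, the epsilon tubulin of centrioles, had 149, 122, 131 and 157 in the knockout and 145, 214, 154 and 219 in the ApcMin/+ libraries (-0.37, SE 0.21, limma adjusted p = 0.368), and Tubd1, the delta tubulin, averaged 236.5 in knockout and 274 in ApcMin/+ adenomas. Gm17383, a processed pseudogene that holds 53.6% of the 31-base words of Tuba1a, was at 90, 47, 22 and 79 in the knockout and 38, 8, 5 and 113 in the ApcMin/+ libraries, low beside Tuba1a.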
